A study of Rattus norvegicus with 18 samples.

Results

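Knee synovial tissue of rats with adjuvant-induced arthritis (AIA) in a cold model was compared with that of rats with plain AIA, across every gene measured on the array. The members were the 3 arrays labelled AIA-cold and the 3 labelled AIA, 6 of the 18 arrays used here, and they were chosen by their labels alone. All came from male Lewis rats, an inbred strain that is prone to this arthritis, aged 6 to 8 weeks, weighing 200 g and housed at 24 °C, with 6 rats stated for each group. The other arrays, 3 a group, were untreated controls, AIA-hot, and each of the cold and hot models given WTD, a Chinese herbal formula. AIA is shared by every group but the controls. The labels do not say how the cold and the hot model were produced, so the name of the group is all that is known of what set AIA-cold apart from AIA. The arrays are called biological replicates in the labels, which do not say whether the numbers in their titles mark animals. The p-values therefore measure only the spread between these arrays.

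Adjuvant arthritis is an immune disease of the joint in which the synovium, a thin lining over loose and fatty tissue, thickens and fills with leukocytes. Adipocytes of the joint make fatty acids from glucose when they are fed and stimulated by insulin, through ATP citrate lyase, acetyl-CoA carboxylase and fatty acid synthase, and the transcription factors Srebf1 and Mlxipl drive these genes. Fasting and glucocorticoids turn the balance toward the use of fat, through carnitine palmitoyltransferase, which admits fatty acids to the mitochondrion. Glucocorticoids, the stress hormones that also damp inflammation, act through a nuclear receptor whose known targets include Fkbp5 and Zbtb16.

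Signals were log2 values set against each array's 75th percentile, so 0 is the level of a probe at that percentile, and differences are AIA-cold minus AIA on this log2 scale. The share of probes that the scanner software marked as well above background was 64.2% to 68.3% in AIA-cold and 56.4% to 60.0% in AIA. The lowest signal well above background lay between -4.52 and -4.24 on the former and between -3.59 and -3.40 on the latter, so dim genes were measured further down on the AIA-cold arrays. All 3 AIA-cold arrays were on 1 slide, AIA replicate 1 was on the slide of the controls, and the other AIA arrays were on a slide with AIA-hot arrays. No slide held both groups, so slide and model cannot be told apart. Prg4, lubricin, which defines the synovial lining, was between 6.47 and 7.94 on the 6 arrays. Control replicate 1 stood apart from the other 17 arrays, with 43.3% of probes well above background, and it enters the comparison through the shared estimate of the spread. It also enters the control means, and the differences from the controls were not fitted without it. The controls and AIA-hot shared no slide with AIA-cold either, so slide cannot be told apart from group in those comparisons.

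No gene differed between AIA-cold and AIA at an adjusted p under 0.05. By limma, fitted to all 18 arrays with Benjamini-Hochberg adjustment, 0 of 23609 genes were called (0%), and the smallest adjusted p was 0.0625. At an unadjusted p under 0.05 there were 2137 genes (9.05%), 894 higher in AIA-cold (3.79%) and 1243 lower (5.26%), where 1180 would be passed on average with no difference anywhere. The 3 arrays of one group lay apart from the 3 of the other for 2519 genes that were higher in AIA-cold (10.7%) and 3185 that were lower (13.5%). The median difference over all genes was -0.01, with 48.3% of genes higher and 51.7% lower. Below, the members of a gene list are read against these shares, and "lay apart" means that the 3 arrays of each group did not overlap.

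The count depended on control replicate 1. Without it 76 genes were called, 20 higher and 56 lower, of which 19 had a gene symbol. By name, they included Alox15b, Zim1, Zbtb16, Tgm1 and Ucp2 on the higher side and Rspo2, Papss2, Myo1c and Fgf7 on the lower side. Of the 76, 22 were well above background on all 6 arrays. With only the 6 arrays in the fit 28 genes were called (0.119%), 15 higher and 13 lower, and 9 had a symbol. Of those, Dhcr7, Lep, Prodh and Lrig3 were lower and Asf1b higher. The split of genes at an unadjusted p under 0.05 also moved with the scaling, from 41.8% higher with the 75th percentile to 53.6% higher with quantile normalization.

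Genes of fatty acid synthesis were lower in AIA-cold than in AIA, with the lowest median difference of the 45 lists. All lists were chosen with earlier results of these data known, so this rank is only a description. Of 17 measured members of the fatty acid list, 16 were lower and 1 was higher, 7 were lower at an unadjusted p under 0.05, and 8 lay apart below AIA. The median difference was -1.11, and none of the 17 was called after adjustment over all genes. Leaving out each of the 6 arrays in turn gave between 14 and 16 lower members and a median between -1.47 and -0.85.

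Fasn, fatty acid synthase, which builds palmitate, was at 3.20, 3.58 and 3.18 on the AIA-cold arrays and at 8.95, 5.69 and 8.33 on the AIA arrays. The groups lay far apart, and the AIA-cold arrays were close to each other while AIA replicate 2 was well below the other AIA arrays. The difference was -4.33 ± 1.03 (SE), which is 20.2-fold, with an adjusted p of 0.205 by limma. A second Fasn probe differed by -4.07.

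Scd, stearoyl-CoA desaturase, which makes monounsaturated from saturated fatty acids, was at 2.31, 2.29 and 3.86 on the AIA-cold arrays and at 7.74, 6.13 and 7.43 on the AIA arrays. Every AIA-cold array was below every AIA array. The difference was -4.28 ± 0.90 (SE, adjusted p = 0.171 by limma). The other Scd probe differed by only -0.13, so the 2 probes of this gene disagreed. Its close relative Scd2 differed by -1.11 ± 0.45 (SE), with probes between -3.51 and -0.59.

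Acaca, acetyl-CoA carboxylase, the committed step of the pathway, was at 3.92, 4.39 and 3.79 in AIA-cold and at 7.75, 4.95 and 6.86 in AIA. The groups did not overlap, though AIA replicate 2 was near the highest AIA-cold array. Acaca differed by -2.48 ± 0.89 (SE, adjusted p = 0.416 by limma). Me1, malic enzyme, which supplies NADPH for the pathway, was at 3.32, 3.75 and 3.54 in AIA-cold and at 6.74, 4.53 and 5.14 in AIA, again without overlap, a difference of -1.93 ± 0.56 (SE).

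Elovl6, which lengthens palmitate, overlapped between the groups, at 1.5, 2.06 and 0.51 in AIA-cold and 4.87, 1.99 and 3.15 in AIA, and differed by -1.98 ± 0.91 (SE). Acly, ATP citrate lyase, which supplies the acetyl-CoA, differed by -1.5 ± 0.66 (SE) with its value on AIA-cold replicate 2 missing. The transcription factors that drive these genes differed less. Mlxipl, the carbohydrate response factor, differed by -1.33 ± 0.78 (SE) and Srebf1, the sterol response factor, by -1.14 ± 0.62 (SE), and both lay apart below AIA. The 1 higher member was Lpin1, a phosphatidate phosphatase, at 0.49 ± 0.59 (SE).

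**Figure D1:**
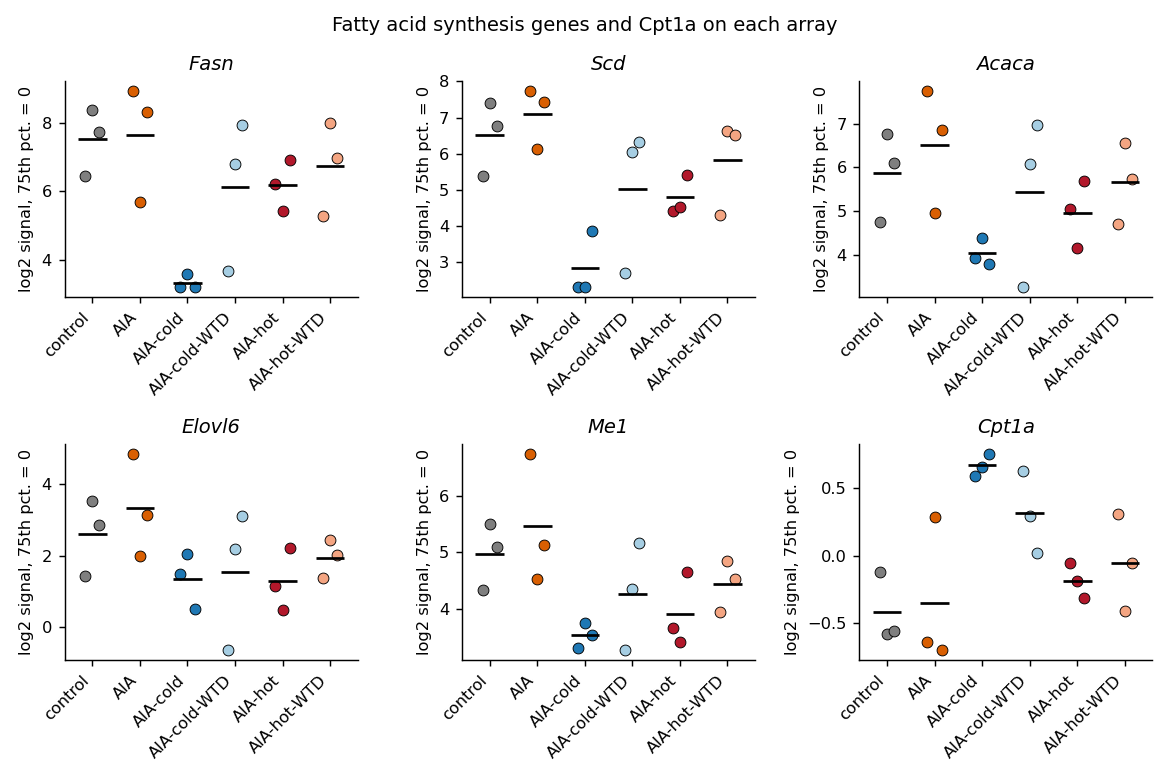
Each panel plots the log2 signal of 1 gene relative to the array's 75th percentile, with 1 point per array (missing values left out), a bar at the group's mean, and the 6 groups on the x axis. In Fasn, Scd, Acaca and Me1 the 3 AIA-cold points are below the 3 AIA points, and in Cpt1a they are above them, while in Elovl6 the groups overlap.

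The other groups placed these levels on both sides of the comparison. Fasn averaged 7.54 in the controls, 7.66 in AIA, 6.19 in AIA-hot and 3.32 in AIA-cold. Relative to the controls, Fasn differed in AIA-cold by -4.21 (adjusted p = 0.0695 by limma) and Scd by -3.70 (adjusted p = 0.069 by limma). The list's median was -0.71 in AIA-cold against the controls, 0.55 in AIA against the controls and -0.92 in AIA-hot against AIA. These comparisons share the control or the AIA arrays. The direct difference between AIA-cold and AIA-hot was -2.87 ± 1.03 (SE, adjusted p = 0.751 by limma) for Fasn, and the list's median there was -0.21.

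Fasn and Scd differed between the slides that held the AIA-cold-WTD arrays. AIA replicates 2 and 3 shared a slide, and their Fasn levels also differed. The part of the slide in these values was not tested. The AIA-cold-WTD array on the slide of the AIA-cold arrays had Fasn at 3.66 and Scd at 2.70, near the AIA-cold levels, and the other AIA-cold-WTD arrays, on another slide, had Fasn at 6.82 and 7.95 and Scd at 6.04 and 6.32. That array also had the lowest adipocyte marker mean of the 18. Its sample title carries the letter G, where the titles of the other AIA-cold-WTD arrays carry Z. The AIA-hot-WTD titles carry D, G and Z, and the WTD arrays were grouped here by their group label alone. What the letters mean is not known here, so slide and letter cannot be told apart among the AIA-cold-WTD arrays. The part of the slide in the lower lipid synthesis genes cannot be told apart from that of the model.

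Genes of cholesterol synthesis and uptake were lower as well, by smaller amounts. Of 18 measured members 17 were lower, 6 at an unadjusted p under 0.05, and 10 lay apart below AIA, with a median of -0.45. The list's median was -0.31 in AIA-hot against AIA. Dhcr7, which makes the last step to cholesterol, was at 0.71, 0.93 and 0.60 in AIA-cold and at 3.21, 2.62 and 2.81 in AIA. The groups were well separated and each was tight, and the difference was -2.13 ± 0.61 (SE, adjusted p = 0.284 by limma with 18 arrays and 0.0377 with the 6 arrays alone). Fdft1, squalene synthase, differed by -1.07 ± 0.31 (SE) and Idi1, an isomerase of the early pathway, by -0.74 ± 0.26 (SE), both without overlap.

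The promoters of these lists are shown because the members were low together. RefSeq windows of 200 bases before the start site (build GRCr8) were matched by symbol for 12 of the 17 fatty acid genes and 13 of the 18 cholesterol genes. The CCAAT box, letters CCAAT searched on both strands, was in 9 of the 12 (75%) and in 11 of the 13 (84.6%), against 29.4% of all 27457 promoters of the same length. The sterol response element written TCACNCCAC was in 0 of the 12 and 0 of the 13 windows, and in 0.783% of all promoters. Of 5 motifs searched, the GC box GGGCGG was in 4 of the 12 (33.3%) and 10 of the 13 (76.9%), against 30.4% of all promoters, and also in 13 of 19 glucocorticoid-induced genes (68.4%). CCAAT was in 6 of those 19 (31.6%). A match is a description of letters, not of a bound site. The windows of Acly, Scd2, Mlxipl, Srebf1, Thrsp, Idi1 and Insig1 hold the CCAAT box, and those of Scd, Me1, Dhcr7 and Cyp51 do not. Fasn, Acaca and Elovl6 had no window and were not searched. So the genes with the largest differences either lacked the box, as Scd and Dhcr7 did, or were not searched. The windows of Acly, Scd2, Mlxipl and Scd are printed here. Capitals mark CCAAT or its reverse complement.
Acly, chr10:85963632-85963831, minus strand: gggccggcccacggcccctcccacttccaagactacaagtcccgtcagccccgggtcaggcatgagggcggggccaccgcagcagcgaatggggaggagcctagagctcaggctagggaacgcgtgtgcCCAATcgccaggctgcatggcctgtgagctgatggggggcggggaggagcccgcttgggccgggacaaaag
Scd2, chr1:253118177-253118376, plus strand: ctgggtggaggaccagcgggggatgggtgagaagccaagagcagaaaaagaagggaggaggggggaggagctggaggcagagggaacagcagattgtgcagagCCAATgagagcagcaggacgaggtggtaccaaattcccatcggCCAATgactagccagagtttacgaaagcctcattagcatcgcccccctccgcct
Mlxipl, chr12:27213661-27213860, minus strand: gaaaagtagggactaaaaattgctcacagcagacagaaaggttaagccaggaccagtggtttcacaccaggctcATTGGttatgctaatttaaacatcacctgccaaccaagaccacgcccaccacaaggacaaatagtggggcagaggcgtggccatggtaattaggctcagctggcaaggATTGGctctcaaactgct
Scd, chr1:253231732-253231931, minus strand: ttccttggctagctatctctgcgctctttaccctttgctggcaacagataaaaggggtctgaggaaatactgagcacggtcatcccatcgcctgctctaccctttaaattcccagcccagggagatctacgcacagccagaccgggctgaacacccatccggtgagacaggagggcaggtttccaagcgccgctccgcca

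Genes of glycolysis and glucose uptake were mostly lower too. Of 20 measured members 15 were lower, 5 at an unadjusted p under 0.05, and 9 lay apart below AIA against 1 above, with a median of -0.39. Ldha, lactate dehydrogenase A, was at 1.63, 1.63 and 1.52 in AIA-cold and at 3.05, 2.19 and 2.43 in AIA. The AIA-cold arrays were within a narrow range below all AIA arrays, and the difference was -0.96 ± 0.25 (SE, adjusted p = 0.231 by limma). Slc2a4, the insulin-regulated glucose transporter of fat and muscle, differed by -1.33 ± 0.59 (SE) and Slc2a1, the transporter of most cells, by -0.69 ± 0.20 (SE). Gapdh and Eno1, enzymes of the lower pathway, differed by -0.58 ± 0.21 (SE) and -0.62 ± 0.25 (SE). AIA replicate 1 was the highest of the 6 arrays for each of Ldha, Slc2a4, Slc2a1, Gapdh and Eno1, and without it the list's median was -0.23. All 19 measured subunits of the respiratory chain were lower, with a median of -0.40, 5 lay apart and none reached an unadjusted p under 0.05. Without AIA replicate 1 their median was -0.21 and 17 were lower. In AIA-hot against AIA, which shares the AIA arrays, the median was -0.49 for these subunits and -0.24 for the glycolysis list.

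Adipocyte markers did not differ by as much as the lipid synthesis genes, and their mean level per array was 4.24, 4.43 and 3.18 in AIA-cold and 4.55, 4.49 and 4.00 in AIA. The ranges overlapped, and AIA-cold replicate 3 was the lowest of the 6. Of 19 measured members 15 were lower, 5 lay apart below AIA, and the median was -0.25. Without AIA-cold replicate 3 the median was 0.15 and 7 were lower, so that array decided the list's direction. Adipoq, the adipocyte hormone adiponectin, differed by -0.27 ± 0.72 (SE), Fabp4, the fatty acid carrier, by -0.03 ± 0.69 (SE), and Plin1, the coat protein of lipid droplets, by -0.45 ± 0.85 (SE). In bulk tissue, fewer cells of a type and less RNA per cell cannot be told apart.

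Lep, the satiety hormone leptin that adipocytes release in proportion to their fat, was at -4.07, -4.71 and -4.92 in AIA-cold and at -1.94, -2.00 and -2.29 in AIA. It was well above background on no AIA-cold array and on all 3 AIA arrays, so it was at least 4.59-fold lower in AIA-cold, with an adjusted p of 0.457 by limma with 18 arrays and 0.038 with 6. Normexp background correction, which raises dim signals, brought the difference to -0.853. Rbp4, a retinol carrier that adipocytes secrete, differed by -1.31 ± 0.58 (SE) without overlap. In the other direction, Pck1, the glycerol-forming carboxykinase of adipocytes, was at 6.14, 6.29 and 4.68 against 4.81, 5.03 and 3.73, with overlap and a difference of 1.18 ± 1.06 (SE). Pnpla2, the lipase that starts the breakdown of stored fat, differed by 0.48 ± 0.82 (SE).

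Genes of fatty acid oxidation lay on both sides of 0. Of 18 measured members 5 were higher and 13 lower, with 2 lying apart in each direction and a median of -0.18. Without AIA-cold replicate 3 the median was 0.04 and 10 were higher, and without AIA replicate 1 it was 0.003.

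Cpt1a, the carnitine palmitoyltransferase of most tissues, which limits the oxidation of fatty acids, was at 0.59, 0.66 and 0.76 in AIA-cold and at -0.64, 0.29 and -0.70 in AIA, a difference of 1.02 ± 0.25 (SE, adjusted p = 0.218 by limma). The groups did not overlap. Cpt1b, the form of muscle and brown fat, differed the other way, by -0.99 ± 0.65 (SE). Pdk4, which keeps pyruvate from oxidation, and Angptl4, an inhibitor of lipoprotein lipase, overlapped between the groups and differed by 1.02 ± 0.70 (SE) and 1.39 ± 0.74 (SE). Ucp2, a mitochondrial carrier, was at 1.13, 1.24 and 1.00 in AIA-cold and at -0.15, 0.36 and -0.52 in AIA, without overlap, and differed by 1.23 ± 0.24 (SE, adjusted p = 0.171 by limma).

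**Figure D2:**
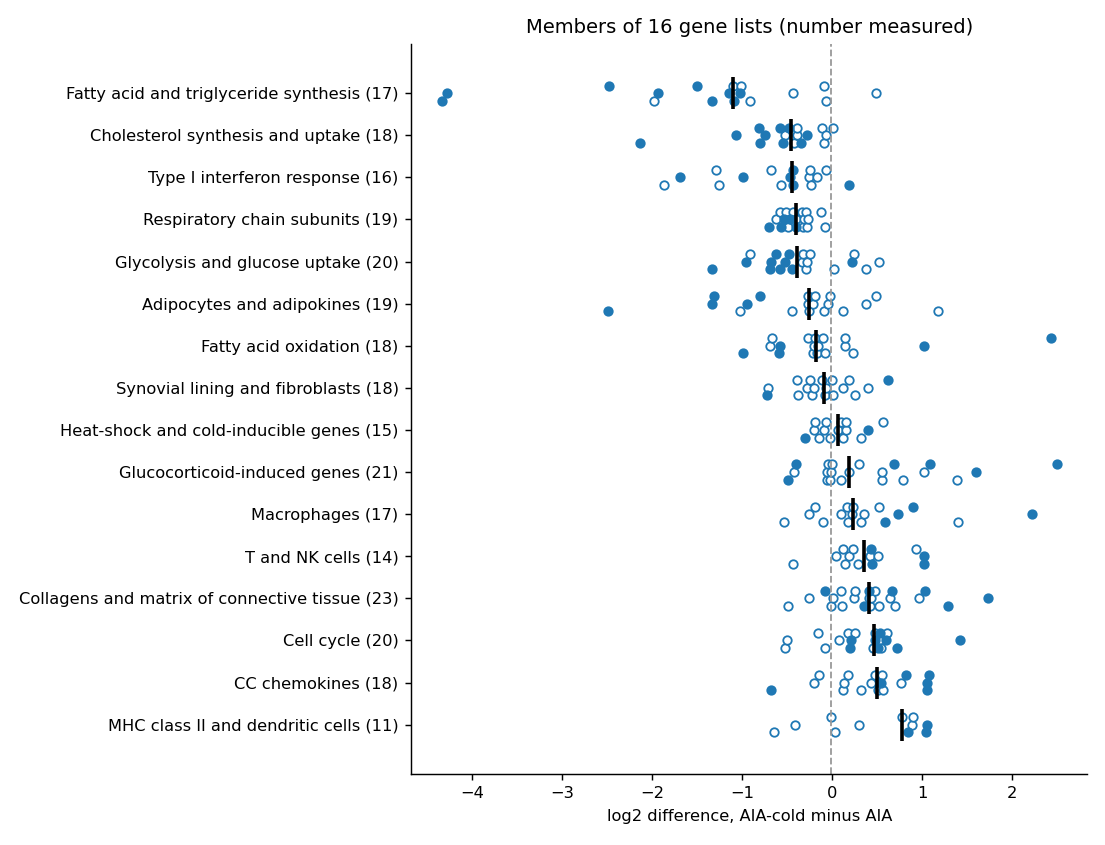
Each point is 1 measured member of a gene list, placed by its log2 difference (AIA-cold minus AIA, x axis). Points are filled where the 3 arrays of each group did not overlap or a value was missing (Acly and Acadm), and open where they overlapped. Black bars are list medians and the dashed line is the median of all genes, -0.01. The fatty acid synthesis list is the furthest to the left, with a median of -1.11, and MHC class II the furthest to the right of those drawn, at 0.77.

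Genes that glucocorticoids induce ranged from 2.49 to -0.49 in their differences, and none passed adjustment. Of 21 measured members 13 were higher and 8 lower, and 4 were higher and 1 lower at an unadjusted p under 0.05. Of the 21, 4 lay apart above AIA and 2 below, and the median was 0.19. Without AIA replicate 1 the median was 0.29 and 12 lay apart above AIA, where 14.2% of all genes did. With any other of the 6 arrays left out, between 4 and 7 lay apart above AIA. Without AIA-cold replicate 1 the median was 0.075. Fkbp5, a chaperone of the glucocorticoid receptor and one of its most responsive targets, was at 4.74, 3.93 and 4.08 in AIA-cold and at 3.16, 2.29 and 2.53 in AIA. All AIA-cold arrays were above all AIA arrays. The difference was 1.59 ± 0.35 (SE, adjusted p = 0.171 by limma), and 3 probes gave between 1.25 and 1.72. Against the controls, where 126 genes were called in AIA-cold (0.534%), Fkbp5 was higher by 2.50 (adjusted p = 0.0147 by limma). The list's median was 0.143 in AIA-hot against AIA, which shares the AIA arrays, and 0.133 in AIA-cold against AIA-hot.

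Zbtb16, a zinc finger transcription factor that the receptor induces, was at 0.77, 0.45 and 0.20 in AIA-cold and at -1.38, -2.24 and -2.43 in AIA. The groups were separated by more than the spread within either. The difference was 2.49 ± 0.45 (SE), or 5.63-fold, with an adjusted p of 0.151 by limma, and against the controls it was 3.46 (adjusted p = 0.0136 by limma). Its 2 probes lay 156.7 kb apart on chromosome 8 and gave unlike differences, 2.49 for the one kept for the gene and 0.63 for the other. Both read the minus strand of build rn4, on 1 transcript per the scanner files, and are shown as the sequences behind those values.
Zbtb16 kept probe, chr8:51934505-51934564: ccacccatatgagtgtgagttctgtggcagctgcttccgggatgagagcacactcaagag
Zbtb16 second probe, chr8:52091263-52091322: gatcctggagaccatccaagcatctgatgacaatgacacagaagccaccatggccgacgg

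Other targets of the receptor lay on both sides of 0. Tsc22d3, the anti-inflammatory leucine zipper protein, differed by -0.01 ± 0.20 (SE) and Per1, a clock gene, by -0.06 ± 0.37 (SE). Mt2A, a metal-binding protein, differed by 1.09 ± 0.46 (SE) without overlap, and Errfi1, a receptor feedback inhibitor, by -0.49 ± 0.20 (SE), also without overlap. Of 16 measured clock genes 7 were higher and 9 lower, with a median of -0.03. Of the 16, 5 lay apart above AIA (31.2%, against 10.7% of all genes) and 2 below (12.5%, against 13.5%). Nr1d1, a clock repressor, was at -0.40, -0.02 and -0.73 in AIA-cold and at -1.52, -1.47 and -1.44 in AIA, a difference of 1.09 ± 0.48 (SE). Its AIA arrays were close together and below all AIA-cold arrays.

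Alox15b, a lipoxygenase that oxygenates arachidonic acid, had the smallest p-value of the genes with a symbol. It was at -3.11, -1.72 and -1.75 on the AIA-cold arrays and at -5.58, -5.69 and -5.58 on the AIA arrays. It was well above background on all 3 AIA-cold arrays and on no AIA array, where the measured values are therefore not levels. The fitted difference was 3.42 ± 0.51 (SE, adjusted p = 0.066 by limma), and set against the detection limit of the AIA arrays it was at least 2.41-fold higher in AIA-cold. That bound holds for the signals as scaled here, since normexp background correction with its offset brought the fitted difference to 0.748. Its probe, by which this gene was read, lies on the minus strand of build rn4.
Alox15b probe, chr10:55952102-55952161: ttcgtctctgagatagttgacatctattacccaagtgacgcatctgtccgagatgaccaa

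Alox15b was well above background on no array of the other groups either, the highest of their arrays being control replicate 1 at -3.89. It therefore passed the filter on dim probes only through AIA-cold, the group where it was high, and its p-values are not independent of that filter. Its measured mean was -5.28 in the controls, -5.92 in AIA-hot and -7.15 in AIA-cold-WTD, values that are not levels. AIA-cold was at least 1.95-fold higher than the controls (adjusted p = 0.0235 by limma) and at least 7.01-fold higher than AIA-cold-WTD (adjusted p = 0.00241 by limma), 1 of 2 genes called in the latter comparison (0.00847%). The AIA-cold-WTD array that shared the slide of the AIA-cold arrays was at -6.83, not above background. Among 11 measured genes of the lipoxygenase and leukotriene list, 6 were higher and 5 lower, with a median of 0.19, or -0.04 with no filter on dim probes. Alox15, the related lipoxygenase of macrophages, differed by 1.20 ± 0.60 (SE) without overlap, with 1 AIA array above background. Alox12 differed by -0.16 ± 0.57 (SE) with no array above background in either group.

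Zim1, an imprinted zinc finger gene, was at -0.23, -0.21 and -1.04 on the AIA-cold arrays and at -3.01, -2.05 and -2.52 on the AIA arrays. It was above background on all 6 arrays, and the AIA-cold arrays were all higher. The difference was 2.03 ± 0.33 (SE), or 4.08-fold, with an adjusted p of 0.0932 by limma. Its means in the other groups lay close to AIA, at -2.95 in the controls, -2.95 in AIA-hot and -2.59 in AIA-cold-WTD. Against the controls it was higher by 2.46 (adjusted p = 0.0136 by limma). Of 10 measured imprinted genes 7 were higher, and Grb10, an imprinted adaptor of the insulin receptor, differed by 0.47 ± 0.26 (SE).

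**Figure D3:**
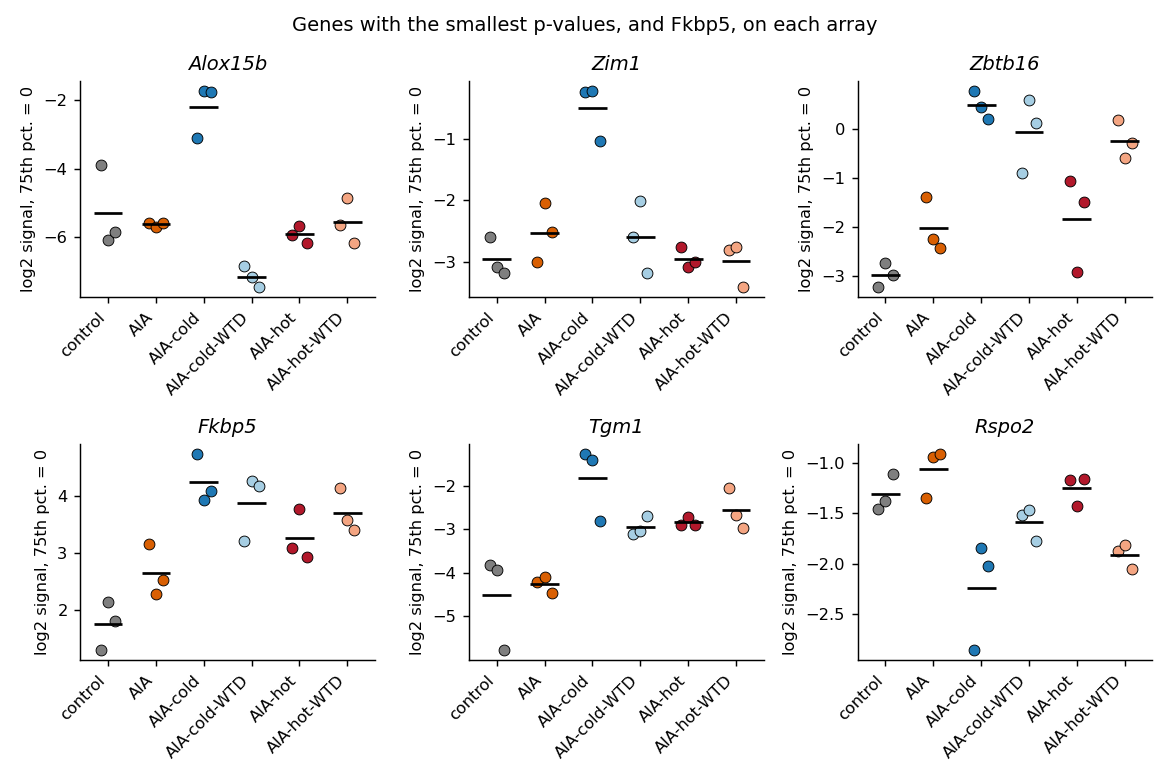
Each panel plots the log2 signal of 1 gene relative to the array's 75th percentile, with 1 point per array, a bar at the group's mean, and the 6 groups on the x axis. The AIA-cold points of Alox15b and Zim1 are above those of all other groups, Zbtb16, Fkbp5 and Tgm1 are higher than in AIA and the controls, and Rspo2 is lower than in either.

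Tgm1, the transglutaminase of the epidermal barrier, was at -1.26, -1.41 and -2.82 in AIA-cold and at -4.21, -4.10 and -4.45 in AIA. No AIA array was well above background, so it was at least 3.10-fold higher in AIA-cold, with an adjusted p of 0.164 by limma. With normexp background correction its difference was 0.63. It was also higher than in the controls, by 2.68 (adjusted p = 0.0263 by limma). Tgm1 met the filter on dim probes in AIA-cold and not in AIA, so its p-values may not be independent of that filter. Keratinocyte and barrier genes were mostly unmeasured, 7 of 21 being kept. Of these 6 were higher in AIA-cold, 1 at an unadjusted p under 0.05, which was Tgm1, and the median was 0.24, but -0.06 with normexp and -0.27 with no filter on dim probes. In the scalings by quantile and in the authors' deposited values, further barrier genes were called, Acer1, a ceramidase, on 0 arrays above background in either group, and Krtdap, a keratinocyte protein, on 1 AIA-cold array and no AIA array. Acer1, Krtdap and Fgf7 were named after their values were seen.

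The remaining higher genes with the smallest p-values served various roles. C1qtnf1, a secreted relative of adiponectin, was at 4.47, 4.37 and 3.89 in AIA-cold and at 3.00, 3.04 and 2.89 in AIA, a clear separation, and differed by 1.26 ± 0.27 (SE). Tfcp2l1, a transcription factor, differed by 1.38 ± 0.29 (SE) and Tmem52, a membrane protein, by 0.69 ± 0.14 (SE). Paqr5, a membrane progestin receptor, was above background on 3 AIA-cold arrays and 1 AIA array, so its fitted difference of 1.80 ± 0.33 (SE) rests partly on values that are not levels, and it was 0.392 with normexp. Derl3, which helps clear misfolded proteins from the endoplasmic reticulum, was at least 2.36-fold higher, and Dlk2, a Delta-like membrane protein, at least 1.55-fold. Itgad, an integrin chain of macrophages, was at least 1.16-fold higher, Mfsd10, a transporter, at least 1.40-fold, and Mrm1, a mitochondrial RNA methyltransferase, at least 1.14-fold. Pop1, a subunit of RNase P, differed by only 0.46 ± 0.10 (SE). All had adjusted p-values between 0.151 and 0.171 by limma. Derl3, Dlk2, Itgad, Mfsd10 and Mrm1 were well above background on no AIA array, and with normexp their differences were 0.65, 0.234, 0.091, 0.048 and 0.079 in that order. These genes and Paqr5 met the filter on dim probes in AIA-cold and not in AIA, so their p-values may not be independent of it.

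On the lower side, Rspo2, a secreted amplifier of Wnt signals in skeletal and limb tissue, was at -2.86, -1.84 and -2.02 in AIA-cold and at -1.34, -0.94 and -0.91 in AIA. The groups did not overlap, and AIA-cold replicate 1 was the lowest by far. The difference was -1.17 ± 0.22 (SE, adjusted p = 0.154 by limma), and relative to AIA-hot it was -0.99 ± 0.22 (SE, adjusted p = 0.441 by limma). Ptk7, a Wnt co-receptor, was at -2.65, -2.80 and -2.09 in AIA-cold and at -1.15, -1.41 and -1.74 in AIA, again apart, a difference of -1.08 ± 0.23 (SE). Of 18 measured Wnt and hedgehog modulators 11 were higher and 7 lower, with a median of 0.40, which was 0.22 without AIA-cold replicate 3 and -0.04 with normexp. Hhip, the hedgehog-binding inhibitor, differed by -0.82 ± 0.35 (SE).

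The other lower genes with the smallest p-values had various roles. Papss2, which supplies activated sulfate for proteoglycans, was at 0.43, 0.64 and 0.81 in AIA-cold and at 1.34, 1.21 and 1.15 in AIA, with no overlap and a difference of -0.60 ± 0.12 (SE). Itgb8, an integrin chain that activates TGF-beta, differed by -1.30 ± 0.28 (SE). C1qtnf7, another adiponectin relative, differed by -0.82 ± 0.18 (SE), opposite in direction to C1qtnf1. Myo1c, a motor protein that moves Slc2a4 to the membrane, differed by -0.72 ± 0.14 (SE), and Dmpk, a kinase of muscle, by -0.68 ± 0.14 (SE). Dusp14, a phosphatase of MAP kinases, differed by -0.59 ± 0.13 (SE) and Dcxr, a sugar reductase, by -0.60 ± 0.13 (SE).

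The dimmest of the lower genes rest on few arrays. Zfp185, a cytoskeletal LIM protein, differed by -2.05 ± 0.37 (SE) and was well above background on 1 AIA-cold and 3 AIA arrays. Megf11, a membrane protein, was above it on 0 AIA-cold and 2 AIA arrays, and Ccdc170 on 0 and 1 arrays, so neither has a fold change. Veph1 differed by -1.73 ± 0.36 (SE) with 1 array of each group above background. Htr2a, a serotonin receptor, differed by -1.33 ± 0.27 (SE) with 1 and 2 arrays above background. Its other kept probes differed by only -0.419 and -0.41.

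Inflammatory cytokines differed in both directions. Of 19 listed cytokines 7 were measured, 5 higher and 2 lower, with a median of 0.24, which was -0.64 with no filter on dim probes. Tnf was well above background on 0 of the 18 arrays. Il1b, an early cytokine of arthritis, was at -0.46, -0.43 and -0.52 in AIA-cold and at -0.75, -0.81 and -1.04 in AIA, so the groups lay apart, but the difference was 0.40 ± 0.32 (SE). Il6, a cytokine of the acute response, was at -4.98, -4.56 and -4.55 in AIA-cold and at -3.65, -3.69 and -3.18 in AIA, with 1 array of each group above background. Its fitted difference of -1.19 ± 0.46 (SE) therefore rests mostly on values that are not levels, and it lay between -1.44 and -0.413 over the settings. Il1r2, the decoy receptor of interleukin 1, was at 1.11, 0.08 and 0.86 in AIA-cold and at -0.68, -0.39 and -0.75 in AIA, above background on every array, with a difference of 1.29 ± 0.47 (SE). Irak2, a kinase of that pathway, differed by 0.58 ± 0.54 (SE) with 1 AIA-cold and no AIA array above background.

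Chemokines of the CC family and their receptors were mostly higher in AIA-cold. Of 18 measured members 15 were higher and 3 lower, 3 at an unadjusted p under 0.05, all higher, and 5 lay apart above AIA against 1 below, with a median of 0.49. Normexp background correction brought the median to 0.12. The list was also higher in AIA-hot than in AIA, with a median of 0.645, in a comparison that shares the AIA arrays. Ccl3, which draws macrophages and T cells, was at -0.99, -1.0 and -1.06 in AIA-cold and at -1.77, -1.73 and -2.75 in AIA. The AIA-cold arrays were within a narrow range above all AIA arrays, and the difference was 1.07 ± 0.24 (SE, adjusted p = 0.176 by limma). Against the controls Ccl3 was higher by 1.93 (adjusted p = 0.0136 by limma), and relative to AIA-hot it was at 0.37 ± 0.24 (SE). Ccl6, a chemokine of myeloid cells, differed by 1.05 ± 0.40 (SE) without overlap. Ccl2, the monocyte chemokine, overlapped and differed by 0.13 ± 0.63 (SE).

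Type I interferon genes were lower as a list. Of 16 measured members 15 were lower and 1 higher, 1 reached an unadjusted p under 0.05, and 5 lay apart below AIA against 1 above, with a median of -0.45. Mx1, an antiviral GTPase, was at -3.36, -3.80 and -3.73 in AIA-cold and at -1.38, -2.44 and -1.99 in AIA, without overlap, and differed by -1.70 ± 0.72 (SE). Cxcl10, the interferon-induced chemokine of T cells, overlapped, at -0.67, 0.21 and -1.19 against 0.21, 2.45 and 1.30, and differed by -1.87 ± 0.96 (SE). The list was higher in AIA-hot than in AIA, with a median of 0.49, and lower in AIA-cold than in AIA-hot, with a median of -0.94. Those comparisons share arrays with this one.

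Leukocyte markers lay on the higher side by modest amounts. Of 17 macrophage genes 13 were higher, with a median of 0.24, or 0.11 without AIA-cold replicate 3. Cd209f, a lectin of tissue macrophages, was at -0.72, -1.37 and -2.32 in AIA-cold and at -3.54, -3.53 and -3.97 in AIA. The groups were well apart for it, with 1 AIA array above background, a difference of 2.21 ± 0.59 (SE), and against the controls it was higher by 3.05 (adjusted p = 0.0394 by limma). Of 14 T and NK cell genes 13 were higher, with a median of 0.36, and of 11 MHC class II and dendritic cell genes 8 were, with a median of 0.77. Normexp moved the MHC class II median to 0.36 and the T and NK cell median to 0.012. AIA-hot against AIA gave medians of 0.127 for macrophages, 0.733 for T and NK cells and 0.625 for MHC class II. RT1-Db1, a class II chain, was at 4.23, 2.92 and 4.30 against 2.84, 2.66 and 2.81, with a difference of 1.04 ± 0.49 (SE). Ccr7, the receptor that leads dendritic and T cells to lymph nodes, was at least 1.02-fold higher, with 3 AIA-cold arrays and no AIA array above background, and differed by -0.008 with normexp background correction.

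Bone markers differed through 1 array, and cartilage markers were higher with and without it. AIA-cold replicate 3 had a bone marker mean of 1.30, against -1.25 and -1.49 on the other AIA-cold arrays and -1.52 to -1.10 on the AIA arrays. Its cartilage mean was 1.03, against -0.34 and -0.41 on the others of its group and -1.47 to -0.97 in AIA. Of 11 bone genes 10 were higher with a median of 0.83, but without that array 4 were higher and the median was -0.16. Bglap, osteocalcin of bone, was at -2.62, -2.00 and 5.70 in AIA-cold and at -2.03, -2.85 and -0.44 in AIA. Of 13 cartilage genes 12 were higher, with a median of 1.09, and without that array 10 were, 6 lay apart above AIA, against 16.7% of all genes, and the median was 0.75. The cartilage median was 0.93 and the bone median 0.08 in AIA-hot against AIA. Col2a1, the collagen of cartilage, was at -0.76, -0.73 and 4.64 in AIA-cold and at -3.38, -2.04 and -0.14 in AIA, a difference of 2.91 ± 2.91 (SE). A second, dimmer Col2a1 probe differed by -0.17, with 1 AIA array above background.

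**Figure D4:**
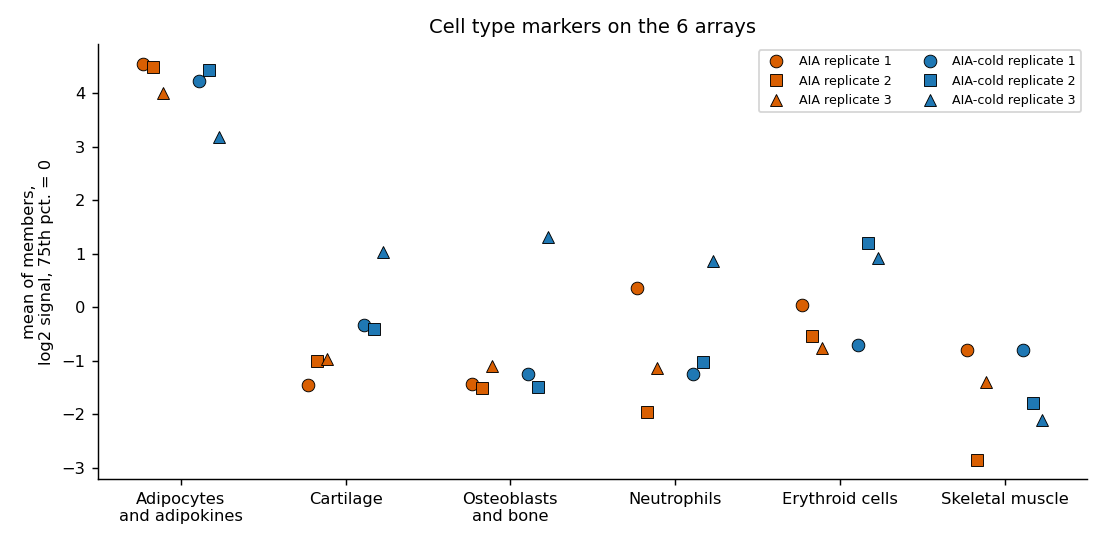
Each point is the mean log2 signal (relative to the array's 75th percentile) of the measured members of a marker list on 1 of the 6 arrays, with AIA in orange, AIA-cold in blue, and symbols for replicates 1 to 3. AIA-cold replicate 3 is above the other 5 arrays for cartilage, bone and neutrophils and below them for adipocytes.

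The same array was the highest of the 6 for Mmp13, Mmp9 and Mmp3. Mmp13, a collagenase, was at -3.60, -2.93 and 2.22 in AIA-cold and at -1.38, -2.30 and -2.32 in AIA, and Mmp9, a gelatinase, was above background on that array alone of the 6. Mmp3, stromelysin, overlapped between the groups and differed by 0.23 ± 0.66 (SE). The neutrophil genes S100a8 and S100a9, subunits of calprotectin, differed by 0.75 ± 1.39 and 0.66 ± 1.29 (SE), with both groups spread widely. Ctsk and Acp5, enzymes of osteoclasts that macrophages also make, differed by 0.64 ± 0.50 (SE) and -0.05 ± 0.35 (SE). The part of the bone, cartilage, neutrophil and adipocyte signal of that array in the other results was not tested. Without it the neutrophil list's median of 0.55 was -0.13, and without AIA replicate 2 it was -0.19. Erythroid genes had a median of 1.21, which was 0.60 without AIA-cold replicate 2.

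Collagen and matrix genes were mostly higher in AIA-cold, and synovial lining genes lay on both sides of 0. Of 23 collagen and matrix genes 19 were higher, 6 lay apart above AIA, and the median was 0.40. It was 0.74 in AIA-hot against AIA. Without AIA-cold replicate 2 or AIA replicate 3, 14 of the 23 lay apart above AIA, where 16.5% and 18.2% of all genes did. With any other of the 6 arrays left out, 6 or 7 lay apart above AIA. Lox, which cross-links collagen, differed by 1.28 ± 0.70 (SE) without overlap. Of 18 synovial lining and fibroblast genes 6 were higher and 12 lower, with a median of -0.09. Prg4, lubricin of the lining, was at 6.47, 7.30 and 7.24 in AIA-cold and at 7.42, 7.84 and 7.94 in AIA, apart and lower by a small amount, with a difference of -0.72 ± 0.28 (SE). Hpgd, which inactivates prostaglandins, was at 1.68, 1.02 and 2.16 in AIA-cold and at 0.15, 0.01 and 0.38 in AIA, a difference of 1.44 ± 0.60 (SE). Ckm, creatine kinase of muscle, was spread over both groups and differed by -0.17 ± 1.94 (SE).

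Genes that respond to low or high temperature lay on both sides of 0. Of 15 measured heat-shock and cold-inducible genes 8 were higher and 7 lower, with a median of 0.07. Cirbp, an RNA-binding protein that cells make when cooled, was at -0.06, 0.12 and 0.16 in AIA-cold and at 0.01, 0.17 and 0.11 in AIA, a difference of -0.02 ± 0.21 (SE). Rbm3, its relative, was at 1.83, 1.79 and 1.86 against 2.00, 1.41 and 1.73, a difference of 0.12 ± 0.18 (SE). The groups overlapped for both. Ucp1, the heat-producing uncoupler of brown fat, was well above background on 0 of the 18 arrays. Of 10 measured genes of brown fat thermogenesis 4 were higher and 6 lower, and Cidea, a droplet protein of brown and white fat, differed by -0.95 ± 0.60 (SE).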

How the data were processed

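Total RNA of knee synovial tissue was hybridised to 18 one-colour Agilent rat arrays, 3 in each of 6 groups. The authors deposited Feature Extraction 10.7 output, per the file headers, in which the processed signal is an intensity after background subtraction, with probe coordinates on build rn4. The authors also deposited a table of log2 values, used as an alternative, whose scale was read by setting it against the scanner values. Its 18 column medians lay between 5.401 and 5.424 and each column correlated with its array at 0.9887 to 0.9999. The submitters' processing notes name limma. The labels do not say how many animals stand behind an array, and the number of arrays limits the precision.

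From each array, outlier spots were dropped, leaving 67 probe values missing, spots of a probe were averaged, and log2 intensity was taken minus the array's 75th percentile. A probe was kept if every array of some group had it well above background (28275 probes), and a gene was its brightest kept probe, giving 23609 genes, 12048 with a symbol. Where AIA-cold or AIA met this but not both, p-values may not be independent of the filter. Of 41012 probes, 18028 were named by accession, 3168 by symbol and 400 by synonym through RefSeq, and 19416 kept the name in the files. Differences were tested by linear models in limma 3.58.1 under R 4.3.3 (moderated by eBayes, all 18 arrays, 12 residual degrees of freedom and 2.29 prior), with calls at an adjusted p under 0.05 after Benjamini-Hochberg adjustment over all genes. The fit was tested on simulated data. "At least" folds set the measured group against the dim group, with each dim array given its lowest detected signal or the probe's own signal, whichever was higher.

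The comparison and the 45 gene lists, whose 821 memberships include 656 measured, were chosen with earlier results of these data known. Genes were named by this rule: called genes, of which there were none, then the 15 higher and 15 lower symbols with the smallest p, up to 2 members of each list with the largest difference in each direction, and fixed genes. Promoter windows were RefSeq's, build GRCr8. Alternatives were quantile and median scaling, normexp background correction with an offset of 50, the deposited table, other filters, other sets of arrays, a robust prior, slide and number blocks, and leaving out each array. The other groups enter the fit and are set beside the comparison, and they were not described for their own sake. Some results are not reported here.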

Additional observations from a re-analysis of the deposited data

Results flagged for a closer look

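Alox15b and Zim1 were the 2 of 23609 genes (0.00847%) that differed between the cold and the hot model in a direct test. Alox15b had a fitted difference of 3.72 ± 0.51 (SE, adjusted p = 0.0382 by limma) between AIA-cold and AIA-hot, and 3 of 3 AIA-cold arrays were above every AIA-hot array. Zim1 was higher in AIA-cold by 2.46 ± 0.33 (SE, adjusted p = 0.0382 by limma), also in 3 of 3 arrays. Alox15b was well above background on no AIA-hot array, so its fitted size depends on values that are not levels, and it was at least 2.98-fold higher in AIA-cold. It was among the genes tested only because the AIA-cold arrays passed the filter on dim probes, so its p-value is not independent of that filter. Zim1 was above background on all arrays of both groups.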

How the results depend on the processing

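No gene was called with the main settings, nor with normexp correction, no filter on dim probes (where the median of all genes was -0.126), probes above background on all 6 arrays, a robust prior, or slide as a random block. At an unadjusted p under 0.05 the main count was 2137, and it was 1079 with normexp. Calls numbered 15 with quantile normalization, 16 in the deposited table (all higher in each, of which 14 and 15 were above background on no AIA array and 1 in each on all 6 arrays), 4 with median scaling, 2 with every probe tested, 28 with only the 6 arrays and 76 without control replicate 1. Leaving out 1 of the 6 arrays gave 0 to 4 calls, namely 2 when AIA-cold replicate 1 was left out, 1 when its replicate 3 was, and 4 when AIA replicate 1 or 2 was. The numbers in the sample titles are shared by 2 pairs, whose deviations correlated at 0.064 and 0.251. Whether a shared number marks a shared animal or day is not stated, and 2 pairs are too few to decide it. The fit with the number as a replicate block called 0 genes, with a smallest adjusted p of 0.192 by limma.

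Among the genes named, the sign of the difference turned in these cases. With the replicate block they were Ccl2 -0.032, Ckm 0.549, Adipoq 0.032, Cirbp 0.06, Fabp4 0.23, Per1 0.221 and Tsc22d3 0.023. With normexp they were Irak2 -0.147, Cirbp 0.001, Ccr7 -0.008, Fabp4 0.038 and Tsc22d3 0.082. With median scaling they were Cirbp 0.017, Fabp4 0.013 and Tsc22d3 0.025, with quantile normalization Alox12 0.107 and Tsc22d3 0.043, in the deposited table Alox12 0.103, Fabp4 0.022 and Tsc22d3 0.035, and with the slide block Fabp4 0.115. With 1 of the 6 arrays left out, the ranges that crossed 0 were, from lowest to highest, -0.235 to 1.903 for S100a8, -0.208 to 1.665 for S100a9, -0.219 to 0.304 for Ccl2, -0.321 to 0.526 for Mmp3, -1.329 to 1.589 for Mmp9, -1.267 to 1.643 for Mmp13, -0.538 to 3.624 for Bglap and -0.036 to 0.26 for Rbm3. They were -0.373 to 0.166 for Acp5, -1.716 to 0.953 for Ckm, -0.577 to 0.15 for Adipoq, -0.253 to 0.326 for Fabp4, -0.068 to 0.043 for Cirbp, -0.6 to 0.265 for Alox12, -0.253 to 0.241 for Per1 and -0.216 to 0.127 for Tsc22d3. The negative ends of the Mmp3, Mmp9, Mmp13, Bglap and S100a8 ranges came without AIA-cold replicate 3. The cause was not tested. List medians also turned, with ranges over the settings of -0.644 to 0.279 for inflammatory cytokines, -0.27 to 0.516 for barrier genes, -0.04 to 0.461 for Wnt and hedgehog modulators, -0.042 to 0.315 for lipoxygenases, -0.524 to 0.15 for adipocytes, -0.319 to 0.042 for fatty acid oxidation, -0.192 to 1.11 for neutrophils, -0.16 to 1.062 for bone, -0.102 to 0.057 for clock genes, -0.422 to 0.156 for brown fat and -0.266 to 0.003 for the synovial lining. The fatty acid synthesis median was -0.96 with normexp, -0.80 with the replicate block and -1.02 with the slide block. Dim genes are limited by the lower detection on the AIA arrays.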
